A study of Mus musculus with 8 samples.

Results

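The expression of 38 genes of glycolysis and the hypoxia response was followed through 4 mouse pro-B cell lines. The genes were listed by name for their place in these pathways: 2 glucose transporters, 11 genes of upper glycolysis, 7 of lower glycolysis, 7 that set the fate of pyruvate, 4 of oxygen sensing and 7 targets of hypoxia signalling. The list was made with earlier results of these data known. All 38 were found among the 23929 gene symbols of the deposited tables. Of these members, 35 reached a level of 1 FPKM (fragments per kilobase of transcript, scaled to the mapped reads) in 2 or more libraries and were tested among the 10479 genes that met this level. The neuronal enolase Eno2, the heart-type lactate dehydrogenase Ldhb and the pyruvate dehydrogenase kinase Pdk2 did not reach it. Aldoc and Egln3 reached it in CBE line 1 alone and Pfkfb4 in WT alone, so these members were tested only because they were high in a particular line. Likewise, Pfkm reached it in the mutant lines alone, and Slc16a3 in the CBE lines and Eµ-deleted replicate 1 alone.

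RNA from cultured pro-B cells of 129SV bone marrow was sequenced, with 2 libraries for each of 4 lines. The WT line was wild type. CBE line 1 and CBE line 2 carried the labels CBE-/- (1) and CBE-/- (2) with the genotype IGCR1-/-, the loss of the intergenic control region of the immunoglobulin heavy chain (IgH) locus that holds CTCF-binding elements. The Eµ-deleted line was labelled Eµ-/-, for the intronic enhancer of the same locus. All lines were kept untreated in RPMI medium with fetal bovine serum and 2-mercaptoethanol, and the labels name no low-oxygen exposure for any of them. WT and the Eµ deletion were each represented by 1 line, so genotype and line cannot be told apart. Whether the 2 libraries of a line stem from separate cultures is not in the labels. The p-values thus rest on spread between libraries that may be only technical.

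Glycolysis splits glucose into pyruvate through a fixed series of enzymes, and many steps have several isoenzymes encoded by separate genes. Pyruvate is then reduced to lactate and exported, or enters mitochondria through a carrier and is oxidised by the pyruvate dehydrogenase complex, which the Pdk kinases switch off. When oxygen is low, prolyl hydroxylases (the Egln genes) stop marking HIF-1α for destruction by the VHL ubiquitin ligase, and HIF-1 then raises glucose transporters, glycolytic enzymes, Pdk1, Bnip3 and its own regulator Egln3. Developing B cells draw heavily on glucose while they proliferate, and in lymphocytes growth signals raise many of these genes without low oxygen.

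The intervals deposited with the values implied 31.3 to 49.5 M reads per library. That is above the stated target of 20 to 30 M in every library, so these values are a rough guide and not counted reads. Over the tested genes, libraries of 1 line correlated at r = 0.978 to 0.992 and libraries of different lines at 0.926 to 0.964 across genes, which are not independent replicates. Of 13 pro-B markers, 12 reached FPKM of 1 in at least 2 libraries, with summed levels of 2750 to 3990. Kit was listed at 0 in every library, and the recombinase genes Rag1 (0.0427 and 0.0295) and Rag2 (0.0207 and 0.00543) were near 0 in WT. T-cell and stromal markers reached that level in 0 of 5 genes each, with Cd3e, Cd4, Cd8a and Cxcl12 at 0 throughout. Myeloid markers reached it in 3 of 10 genes (summed level 4.56 to 8.76 in WT, 5.40 to 12.3 in CBE line 1, 3.05 to 3.64 in CBE line 2 and 4.15 to 5.10 in the Eµ-deleted line), with Elane and S100a8 at 0. Natural killer markers reached it in 2 of 4 (1.97 to 2.58, 0.949 to 1.37, 3.11 to 3.31 and 0.747 to 1.18 in the same order), with Ncr1 at 0. The part of such cells in the results below was not tested.

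The members differed widely in level. On the FPKM scale, which corrects for length, the highest levels by listed symbol were those of the lactate dehydrogenase Ldha (334 to 931) and the glyceraldehyde-3-phosphate dehydrogenase Gapdh (359 to 652), while Eno2 did not exceed 0.0218. The level of Eno1 could not be read from its symbol, as described below, so its place in this order is uncertain. At some isoenzyme steps 1 gene held nearly all of the RNA. The Ldha share of Ldha plus Ldhb was 100% after rounding in every library, and the aldolase Aldoa held 97.6 to 99.9% of Aldoa plus Aldoc. Shares here count the listed members of a family only. The hexokinases, phosphofructokinases, glucose transporters, Pdk genes and the Bnip3 pair were families in which at least 2 members held over 20% of the members' FPKM in some library. The enolases, described below, were another. Expressed genes left out include Egln2 (19.8 to 25.3 FPKM, beside 21.0 to 32.9 for Egln1), Slc2a9 (7.23 to 13.3) and Slc2a6 (4.2 to 7.97). An exact 0 means only that a gene was listed at 0, since Eef1a1, a translation factor that all cells need, was also at 0 in WT replicate 1.

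**Figure D1:**
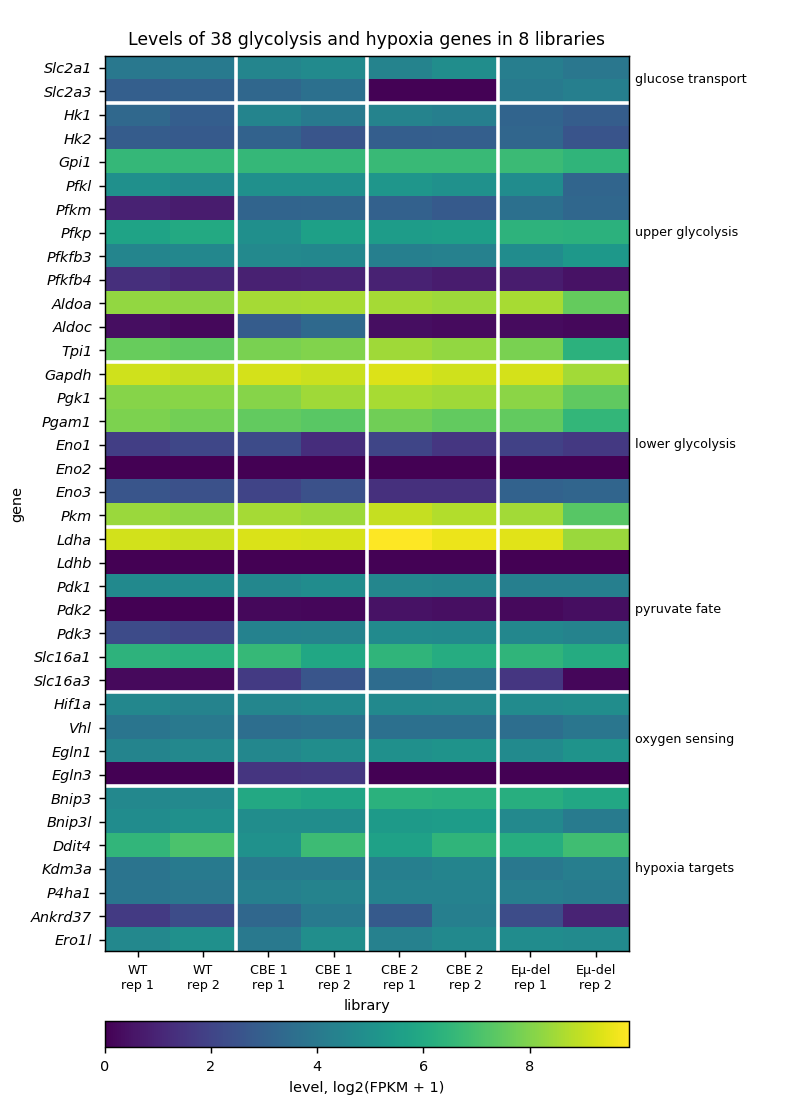
Level of each of the 38 members as log2(FPKM + 1), by colour, in the 8 libraries (columns, 2 per line) with genes in rows grouped by role. The abundant enzyme genes Gapdh and Ldha are bright in all columns, while Slc2a3 is dark in CBE line 2 alone, Aldoc and Egln3 are bright in CBE line 1 alone, and Pfkm and Pdk3 are darkest in WT.

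Against WT, CBE line 1 had 8 of the 35 tested members higher and 0 lower (limma on log2(FPKM + 1), Benjamini-Hochberg adjusted p under 0.05 over all tested genes). Of all tested genes, 10.9% were higher and 8.54% lower. The 8 members include Aldoc and Egln3, which were tested only because they were high in CBE line 1. They also include Pfkm and Slc16a3, which reached the tested level in mutant libraries alone. Pfkm and Slc16a3 are likewise among the members higher in CBE line 2, and Pfkm among those higher in the Eµ-deleted line. CBE line 2 had 7 members higher and 2 lower, beside 10.5% and 8.19% of all genes. The Eµ-deleted line had 5 higher and 2 lower, beside 11.3% and 10.4%. With the replicate number as a block, the last count was 11 (8 higher and 3 lower). The share of members that were higher was 22.9%, 20.0% and 14.3% in these comparisons, all 3 of which use the same WT libraries. The members were chosen with earlier results of these data known, so these shares cannot be read apart from that choice. The median log2 difference of the members was 0.15, 0.17 and -0.03, beside 0.02, 0.04 and 0.01 over all genes. Of the tested members, 27, 26 and 28 were not called. In bulk RNA, fewer cells with a transcript and less transcript per cell cannot be told apart. The counts shifted with single libraries: CBE line 1 had 5 calls without WT replicate 2, CBE line 2 had 15 without Eµ-deleted replicate 1 or replicate 2, and the Eµ-deleted line had 4 without either WT library.

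Among the mutant lines, CBE line 2 had 0 members higher and 4 lower than CBE line 1, beside 5.17% and 5.03% of all genes. The Eµ-deleted line had 4 members higher and 5 lower than the mean of the CBE lines, beside 5.16% and 7.25% of all genes. The median member difference was 0.09 and -0.20, and that of all genes 0.03 and -0.01. In the F-test over the 4 lines, 14 of 35 members differed, beside 27.6% of all genes. The choice of members with earlier results known bears on this share too, and how much was not tested. Without Eµ-deleted replicate 1 or 2, 8 members were called between the CBE lines. Against the CBE mean, the Eµ-deleted line had 19 calls without its replicate 1 and 5 without CBE line 2 replicate 2. The F-test count was 24 without Eµ-deleted replicate 1. It was 8 when CBE line 2 replicate 2 was left out, and 9 when its replicate 1 or either WT library was.

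**Figure D2:**
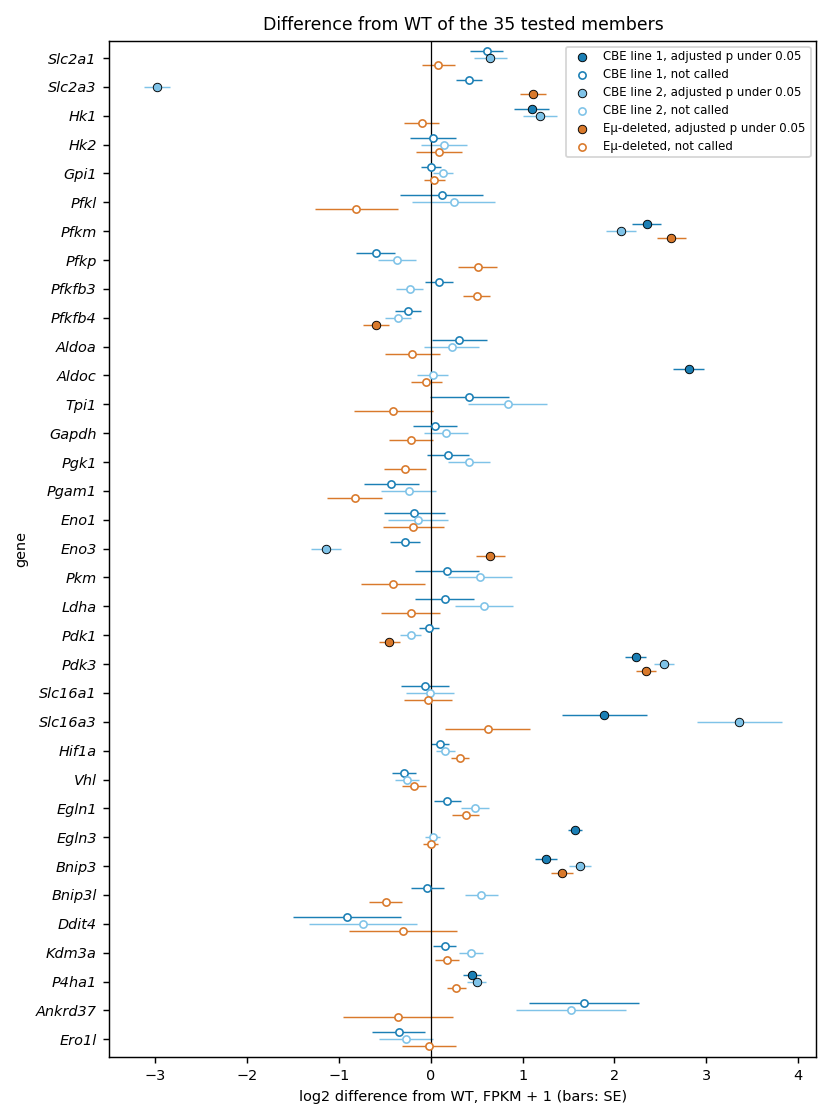
Difference of each mutant line from WT on the log2(FPKM + 1) scale for the 35 tested members, with bars of 1 SE and filled points for adjusted p under 0.05. Pfkm, Pdk3 and Bnip3 are filled and to the right in all 3 lines, Slc2a3 lies far left in CBE line 2 and right in the Eµ-deleted line, and most abundant enzyme genes are unfilled near 0.

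Promoters are shown for 6 members called in at least 1 mutant line against WT and picked after their values were seen, since HIF-1 binds the letters ACGTG or GCGTG. RefSeq windows of the GRCm38.p6 build, from 250 bases before to 50 after a start, were given for 36 of the 38 members, all but Slc2a3 and Bnip3l. Their coordinates are not those of mm9, the build of the gene positions given for the members. Capitals mark ACGTG or GCGTG on either strand (CACGT or CACGC when read on the other), and neighbouring matches run together. Pfkm, Pdk3 and Bnip3 were higher in all 3 mutant lines, Slc16a3 in both CBE lines, and Aldoc and Egln3 in CBE line 1.
Pfkm (GRCm38.p6 chr15:98092339-98092638, plus strand): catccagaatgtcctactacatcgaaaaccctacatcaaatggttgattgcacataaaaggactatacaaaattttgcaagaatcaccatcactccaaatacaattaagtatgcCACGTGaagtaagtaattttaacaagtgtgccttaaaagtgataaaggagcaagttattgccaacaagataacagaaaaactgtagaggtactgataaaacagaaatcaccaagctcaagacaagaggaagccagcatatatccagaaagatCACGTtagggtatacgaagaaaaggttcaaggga
Pfkm (GRCm38.p6 chr15:98108221-98108520, plus strand): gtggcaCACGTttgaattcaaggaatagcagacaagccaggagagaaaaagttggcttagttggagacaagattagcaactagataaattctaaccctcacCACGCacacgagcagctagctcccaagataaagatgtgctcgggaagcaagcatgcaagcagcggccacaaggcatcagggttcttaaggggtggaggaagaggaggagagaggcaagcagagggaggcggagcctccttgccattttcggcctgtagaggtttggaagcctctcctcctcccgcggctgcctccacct
Pdk3 (GRCm38.p6 chrX:93832101-93832400, minus strand): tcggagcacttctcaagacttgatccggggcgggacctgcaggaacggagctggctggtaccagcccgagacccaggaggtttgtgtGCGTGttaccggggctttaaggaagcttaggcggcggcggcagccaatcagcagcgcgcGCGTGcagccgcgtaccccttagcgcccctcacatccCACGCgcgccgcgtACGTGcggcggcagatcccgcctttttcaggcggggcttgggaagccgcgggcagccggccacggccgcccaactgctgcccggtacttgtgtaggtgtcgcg
Bnip3 (GRCm38.p6 chr7:138909457-138909756, minus strand): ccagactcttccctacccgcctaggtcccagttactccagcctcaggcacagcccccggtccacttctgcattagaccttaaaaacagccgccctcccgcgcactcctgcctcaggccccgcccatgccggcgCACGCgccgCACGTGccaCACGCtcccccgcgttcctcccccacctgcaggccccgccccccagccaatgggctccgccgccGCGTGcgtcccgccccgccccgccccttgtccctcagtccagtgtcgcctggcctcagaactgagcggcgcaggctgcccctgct
Slc16a3 (GRCm38.p6 chr11:120948817-120949116, plus strand): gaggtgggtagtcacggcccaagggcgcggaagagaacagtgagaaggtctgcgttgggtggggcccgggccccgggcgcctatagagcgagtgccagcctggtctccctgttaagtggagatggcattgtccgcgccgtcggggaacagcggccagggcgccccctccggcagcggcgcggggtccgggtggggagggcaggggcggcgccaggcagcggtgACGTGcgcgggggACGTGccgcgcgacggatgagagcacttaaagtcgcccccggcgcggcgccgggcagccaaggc
Aldoc (GRCm38.p6 chr11:78322823-78323122, plus strand): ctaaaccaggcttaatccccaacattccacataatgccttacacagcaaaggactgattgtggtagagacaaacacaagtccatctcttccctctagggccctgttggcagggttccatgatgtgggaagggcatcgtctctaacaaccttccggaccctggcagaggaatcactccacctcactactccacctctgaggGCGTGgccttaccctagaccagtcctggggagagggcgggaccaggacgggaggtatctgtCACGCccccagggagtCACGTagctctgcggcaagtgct
Egln3 (GRCm38.p6 chr12:54203825-54204124, minus strand): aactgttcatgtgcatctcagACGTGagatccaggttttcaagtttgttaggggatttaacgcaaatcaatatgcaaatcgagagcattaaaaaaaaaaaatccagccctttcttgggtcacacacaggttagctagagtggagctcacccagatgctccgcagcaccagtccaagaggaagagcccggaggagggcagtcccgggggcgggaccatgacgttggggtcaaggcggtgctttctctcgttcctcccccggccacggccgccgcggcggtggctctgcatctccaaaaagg
These windows hold 2 separate stretches in each of the 2 windows of Pfkm, 4 in Pdk3, 4 in Bnip3, 2 in Slc16a3, 3 in Aldoc and 1 in Egln3. Aldoc has a second window, not shown, with 1 stretch. Pfkm has 2 more, with 1 and 0, and that 1 is a stretch already marked in the overlapping second Pfkm window shown.

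Such letters are common in these promoters. At least 1 of the 2 motifs was found in some window of 32 of the 36 members (88.9%), beside 46.7% of 27025 genes. Per window the shares were 76.9% of 52 member windows and 43.8% of 32851 windows. The members had more windows each (1.44, beside 1.22) and a higher median GC content (63.0%, beside 52.7%), and neither was matched in this comparison. ACGTG overlaps the E-box CACGTG, which MYC and other factors bind, and the E-box was in 19.4% of members and 8.09% of genes. Ldha, which was not called, has 5 stretches in a window. A match describes letters and is not evidence of binding.

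Of the 2 glucose transporter members, Slc2a3 differed more between the lines in RNA level. Slc2a3 encodes the high-affinity transporter GLUT3 (mm9 chromosome 6, 122677826 to 122692763). Its level was 7.0 and 7.47 FPKM in WT, 8.76 and 11.5 for CBE line 1, 0.0521 and 0.0392 for CBE line 2, and 15.5 and 18.1 for the Eµ-deleted line. The libraries of the 4 lines did not overlap, and CBE line 2 was close to 0, with 11 and 9 implied reads where the other libraries had 1611 to 3838. Against WT the log2 difference was -2.98 (SE 0.14, limma adjusted p = 2.46e-05) in CBE line 2. In Eµ-deleted cells it was 1.11 (SE 0.14, adjusted p = 0.00245). The 2 CBE lines, which share a genotype, differed by -3.40 (SE 0.14, adjusted p = 3.39e-05), line 2 against line 1. The difference of CBE line 1 from WT, 0.42 (SE 0.14, adjusted p = 0.0875), was not called. It was called with the replicate block (adjusted p = 0.0333) and in some fits that left out a library. The Eµ-deleted line was above the mean of the CBE lines by 2.39 (SE 0.12, adjusted p = 5.77e-05).

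Slc2a1, the gene of the widely used transporter GLUT1 (mm9 chromosome 4, 118781349 to 118809934), moved less. It stood at 14.5 and 15.2 FPKM in WT, 21.3 and 25.3 for CBE line 1, 20.4 and 27.7 for CBE line 2, and 17.6 and 14.0 for the Eµ-deleted line. All CBE libraries lay above those of WT and the Eµ-deleted line. The log2 difference from WT was 0.65 (SE 0.18, adjusted p = 0.0477) in CBE line 2, a call lost without either WT library (adjusted p = 0.212 without replicate 1, 0.175 without replicate 2), either CBE line 1 library (0.0586 each) or CBE line 2 replicate 2 (0.265). It was also lost with no filter on low values (0.138), and with a pseudocount of 5, only genes of mean FPKM 5 or more, median-of-ratios scaling or quantile normalization (0.0509 to 0.0559). In CBE line 1 it was 0.61 (SE 0.18, adjusted p = 0.0554, or 0.0389 with the replicate block). The Eµ-deleted line was below the mean of the CBE lines (log2 difference -0.55, SE 0.15, adjusted p = 0.0666, or 0.0438 with the block). Slc2a3 thus made up 32.6 and 32.9% of the FPKM of the 2 transporters in WT, 29.1 and 31.2% for CBE line 1, 0.254 and 0.142% for CBE line 2, and 46.8 and 56.3% for the Eµ-deleted line.

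The first enzyme step separated both CBE lines from the other lines. Hk1, the hexokinase bound to mitochondria in most tissues (mm9 chromosome 10, 61731602 to 61842656), had 9.08 and 6.74 FPKM in WT, 20.7 and 15.6 for CBE line 1, 20.3 and 18.1 for CBE line 2, and 8.14 and 6.46 for the Eµ-deleted line. The CBE libraries did not overlap with the others. Mean FPKM was 2.29-fold that of WT in CBE line 1 (log2 difference 1.10, SE 0.19, adjusted p = 0.00896, lost without WT replicate 2 at 0.0704) and 2.43-fold in CBE line 2 (1.19, SE 0.19, adjusted p = 0.00619, lost without CBE line 2 replicate 1 at 0.0577). The Eµ-deleted line was below the mean of the CBE lines (log2 difference -1.24, SE 0.17, adjusted p = 0.00428). Hk2, the inducible hexokinase, stayed between 4.93 and 8.57 FPKM in all libraries, with no call. The antisense gene Hk1os (0.473 to 2.54 FPKM) lies within Hk1, and the handling of strand in the counting is not given in the sources.

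The hexokinase pair was therefore shared differently. Hk2 made up 40.7 and 46.7% of Hk1 plus Hk2 in WT and 51.3 and 43.3% for the Eµ-deleted line. In CBE line 1 it made up 26.6 and 24.5%, and in CBE line 2 24.6 and 27.8%, both below all libraries of the other lines. Hk3 was near 0 everywhere, at 0.00661 FPKM or less.

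At phosphofructokinase, the committed step of glycolysis, the muscle-type gene Pfkm was under 1 FPKM in WT and well above it in every mutant library. Pfkm (mm9 chromosome 15, 97923019 to 97962878) had 0.945 and 0.696 FPKM in WT, 8.10 and 8.38 for CBE line 1, 7.37 and 5.95 for CBE line 2, and 11.6 and 8.80 for the Eµ-deleted line. Mean FPKM was 10.0-fold, 8.12-fold and 12.5-fold that of WT, with log2(FPKM + 1) differences of 2.35, 2.07 and 2.62 (SE 0.16 each; limma adjusted p = 0.00014, 0.000205 and 8.68e-05). All 6 mutant libraries were above both WT libraries. Pfkm was tested only because it was high in the mutant lines, so these calls are not free of that choice. Relative to the mean of the CBE lines, the Eµ-deleted line was higher by 0.41 (SE 0.14, adjusted p = 0.115), called only with the replicate block (0.0354).

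The more abundant phosphofructokinase genes took another course. Pfkp, the platelet type and the main form here, had 52.1 and 62.8 FPKM in WT, 29.4 and 47.2 for CBE line 1, 42.6 and 45.3 for CBE line 2, and 83.1 and 80.7 for the Eµ-deleted line. The Eµ-deleted line was the highest, above the mean of the CBE lines by 1.00 (SE 0.18, adjusted p = 0.0163). That call was lost without Eµ-deleted replicate 2 (0.0818) without either CBE line 2 library (0.0649 and 0.056), and with no filter on low values (0.0786). CBE line 1 differed from WT by -0.60 (SE 0.21, adjusted p = 0.098, or 0.0385 with the block). The liver type Pfkl had 30.0 and 25.2 FPKM in WT, 30.1 and 29.7 for CBE line 1, 35.4 and 30.4 for CBE line 2, and 27.0 and 8.4 for the Eµ-deleted line, and had no call. Every library but Eµ-deleted replicate 2 had 25.2 to 35.4 FPKM.

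As shares of the 3 phosphofructokinase genes, Pfkm held 1.14 and 0.784% in WT, 12.0 and 9.82% for CBE line 1, 8.64 and 7.28% for CBE line 2, and 9.57 and 9.0% for the Eµ-deleted line. Pfkp held 62.7 and 70.8% in WT, 43.6 and 55.3% for CBE line 1, 49.9 and 55.5% for CBE line 2, and 68.3 and 82.4% for the Eµ-deleted line. In both CBE lines Pfkp held less than in either WT library, and all mutant libraries held more Pfkm.

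Of the bifunctional enzymes that make the phosphofructokinase activator fructose-2,6-bisphosphate, the members Pfkfb3 and Pfkfb4 had calls that involved the Eµ-deleted line. Outside the members, Pfkfb1 (1.22 to 2.39 FPKM) was lower there than in WT (log2 difference -0.51, SE 0.12, limma adjusted p = 0.0262). That call was lost without either WT library or Eµ-deleted replicate 2. Pfkfb2 (0.93 to 2.07 FPKM) had no call. Both were named after their values were seen. Pfkfb3, the form with high kinase activity, had 21.6 and 22.6 FPKM in WT, 24.2 and 22.8 for CBE line 1, 18.3 and 19.0 for CBE line 2, and 27.1 and 37.0 for the Eµ-deleted line. The Eµ-deleted libraries were the highest, with a difference from the mean of the CBE lines of 0.57 (SE 0.13, adjusted p = 0.0314). This call was lost without any library other than Eµ-deleted replicate 1, at adjusted p from 0.0595 to 0.111, with no filter on low values (0.0976) and in a fit of only the libraries compared (0.0739). Against WT the difference was 0.50 (SE 0.15, adjusted p = 0.0532, or 0.0291 with the block). Pfkfb4 was tested only because it reached 1 FPKM in WT. It was low throughout, with 1.51 and 1.12 FPKM in WT, 0.876 and 0.999 for CBE line 1, 0.912 and 0.705 for CBE line 2, and 0.691 and 0.381 for the Eµ-deleted line. The last was below WT (log2 difference -0.60, SE 0.14, adjusted p = 0.0271), a call lost without WT replicate 1 (0.157), WT replicate 2 (0.06) or Eµ-deleted replicate 2 (0.0996), with no filter on low values (0.0812) and with only the libraries compared (0.0807).

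Aldolase splits the 6-carbon sugar, and its brain-type gene Aldoc (mm9 chromosome 11, 78137699 to 78140262) was high in CBE line 1 alone. It had 0.294 and 0.173 FPKM in WT, 6.24 and 9.36 for CBE line 1, 0.273 and 0.229 for CBE line 2, and 0.213 and 0.165 for the Eµ-deleted line. The CBE line 1 libraries stood apart from the other 6, among which the lines overlapped. Aldoc was tested only because it was high in CBE line 1. Mean FPKM was 33.4-fold that of WT (log2 difference 2.81, SE 0.17, adjusted p = 8.13e-05), and CBE line 2 was below CBE line 1 (log2 difference -2.79, SE 0.17, adjusted p = 0.000165). Set against the mean of the CBE lines, the Eµ-deleted line was lower (log2 difference -1.47, SE 0.15, adjusted p = 0.00107), a mean that lies between 2 unlike lines. Even in CBE line 1, Aldoc held only 1.66 and 2.40% of Aldoa plus Aldoc. Aldoa itself had 296 to 380 FPKM in every library but Eµ-deleted replicate 2 (182), and no call. Its retrocopies Aldoart1 (8.52 to 18.8 FPKM) and Aldoart2 (6.04 to 12.4) can share reads with it.

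**Figure D3:**
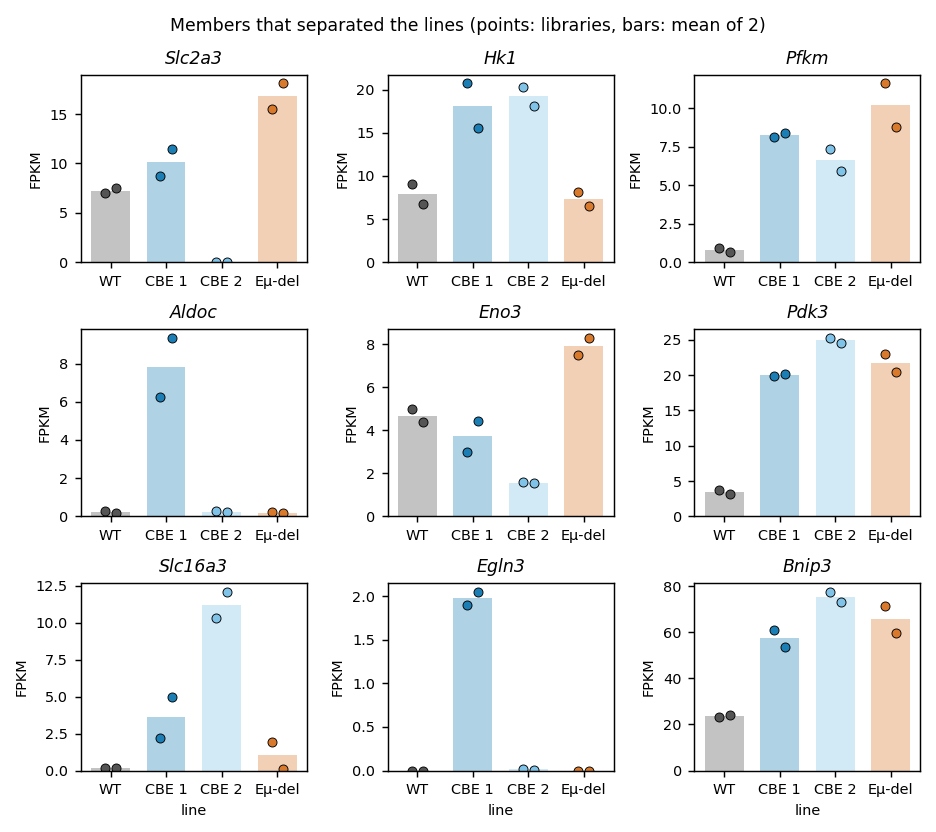
FPKM of 9 members that separated the lines, with a point for each of 2 libraries, bars at their mean and linear axes from 0. Slc2a3 is near 0 in CBE line 2, Hk1 is high in both CBE lines, Aldoc and Egln3 are seen in CBE line 1, and Pfkm, Pdk3 and Bnip3 are lowest in WT.

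The 8 enzyme genes with over 75 FPKM in every library were Gpi1, Aldoa, Tpi1, Gapdh, Pgk1, Pgam1, Pkm and Ldha, grouped after their values were seen. They held most of the members' FPKM by listed symbol, with the Eno1b entries described below not counted. In the test, 0 of these genes passed in any comparison. Their summed level was 2593 and 2395 FPKM in WT, 2741 and 2727 for CBE line 1, 3491 and 3024 for CBE line 2, and 2832 and 1465 for the Eµ-deleted line. Eµ-deleted replicate 2 stood apart. The median difference of its 8 genes from replicate 1 was -1.02 on the log2 scale (range -1.51 to -0.29), where the other lines had -0.14, -0.01 and -0.20, and all tested genes in the Eµ-deleted line had 0.06. Tpi1, the triose phosphate isomerase, had 233 and 80.9 FPKM in the Eµ-deleted libraries. Pkm, the pyruvate kinase, had 360 and 157, and Ldha had 691 and 334. Without this library 4 members were called in the Eµ-deleted line against WT (4 higher, 0 lower). Without Eµ-deleted replicate 1, so with this library alone, 18 were called (7 higher, 11 lower).

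**Figure D4:**
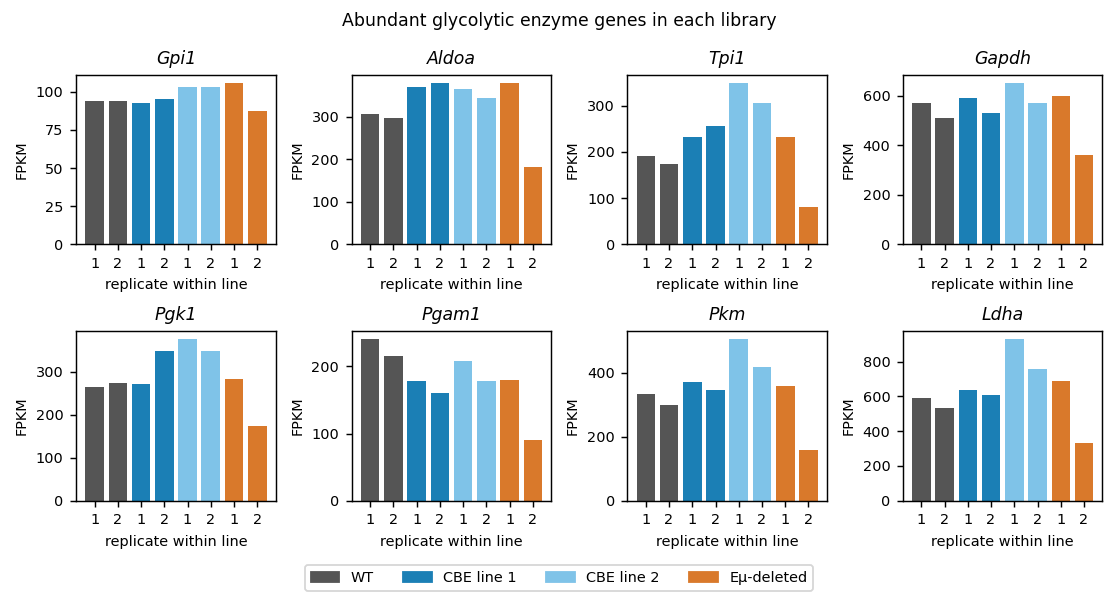
FPKM of the 8 enzyme genes above 75 FPKM throughout, in each library, with bars coloured by line, replicates 1 and 2 side by side and linear axes from 0. Eµ-deleted replicate 2 is the lowest bar in all 8 panels, and CBE line 2 replicate 1 is the highest bar for Tpi1, Gapdh, Pgk1, Pkm and Ldha.

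Pgam1, the phosphoglycerate mutase, had no call in the fit of all libraries without the replicate block. It was called with the block and in some fits that left out a library. It had 241 and 216 FPKM in WT, 178 and 160 for CBE line 1, 208 and 178 for CBE line 2, and 180 and 90.4 for the Eµ-deleted line. All mutant libraries lay below both WT libraries. The difference of the Eµ-deleted line from WT was -0.83 (SE 0.30, adjusted p = 0.0923), or adjusted p = 0.0281 with the replicate block. CBE line 2 had the highest levels of Ldha (931 and 759, beside 590 and 532 in WT) and Tpi1 (350 and 305, beside 191 and 174), with no overlap with WT and no call for either.

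Enolase makes phosphoenolpyruvate, and its muscle-type gene Eno3 (mm9 chromosome 11, 70470677 to 70476015) went in opposite directions in the mutant lines. It had 5.0 and 4.39 FPKM in WT, 3.02 and 4.43 for CBE line 1, 1.60 and 1.55 for CBE line 2, and 7.53 and 8.32 for the Eµ-deleted line. CBE line 2 was the lowest and the Eµ-deleted line the highest, without overlap with any other line, while CBE line 1 overlapped WT. Against WT the log2 difference was -1.14 (SE 0.16, adjusted p = 0.00289) in CBE line 2. In Eµ-deleted cells it was 0.65 (SE 0.16, adjusted p = 0.0285). The second call was lost without WT replicate 1 (0.0974) or 2 (0.166), either CBE line 2 library (0.065 and 0.0651), or Eµ-deleted replicate 2 (0.108), and with no filter on low values (0.0971). CBE line 2 was below CBE line 1 (log2 difference -0.86, SE 0.16, adjusted p = 0.0176, lost without CBE line 2 replicate 1 at 0.115 or 2 at 0.128, with no filter on low values at 0.0704 and with only the libraries compared at 0.0667). Relative to the mean of the CBE lines, the Eµ-deleted line was higher by 1.36 (SE 0.13, adjusted p = 0.00104).

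The main enolase level could not be read from the symbol Eno1. Eno1 had only 1.43 to 3.80 FPKM, at mm9 chromosome 4, 149611305 to 149622982, where an entry named Eno1b covers nearly the same bases with 161 to 305 FPKM. A second Eno1b entry elsewhere in the genome had 423 to 802 FPKM. The sources do not give how reads were split among these near-identical entries, so the level of Eno1 and the shares of the enolases are uncertain.

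Pyruvate dehydrogenase kinases decide how much pyruvate is burned in mitochondria. Here Pdk1 RNA was present in all lines, and Pdk3 RNA was higher in the mutant lines. Pdk3 (mm9 chromosome X, 91009954 to 91077434) had 3.79 and 3.17 FPKM in WT, 19.9 and 20.1 for CBE line 1, 25.3 and 24.5 for CBE line 2, and 23.0 and 20.4 for the Eµ-deleted line. All 6 mutant libraries were far above both of WT. Mean FPKM was 5.74-fold, 7.16-fold and 6.23-fold that of WT, with log2 differences of 2.23, 2.54 and 2.34 (SE 0.11 each; limma adjusted p = 3.4e-05, 1.56e-05 and 2.6e-05).

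Pdk1, the kinase gene best known as a HIF-1 target, had 24.7 and 25 FPKM in WT, 22.4 and 26.8 for CBE line 1, 21.8 and 20.6 for CBE line 2, and 17.9 and 18.0 for the Eµ-deleted line. It was lowest in the Eµ-deleted line, with a difference of -0.45 from WT (SE 0.11, adjusted p = 0.027). That call was lost without WT replicate 1 (0.137) or 2 (0.149), either CBE line 2 library (0.0651 and 0.0648), or Eµ-deleted replicate 2 (0.0725), on the TPM scale (0.0502) and with only the libraries compared (0.0614). Against the mean of the CBE lines the difference was -0.33 (SE 0.09, adjusted p = 0.0667, or 0.04 with the block). Pdk3 accordingly held 13.3 and 11.2% of the FPKM of the 3 kinases in WT, 46.8 and 42.7% for CBE line 1, 53.3 and 53.9% for CBE line 2, and 55.9 and 52.7% for the Eµ-deleted line. Pdk2 did not exceed 0.388 FPKM, and Pdk4, the kinase of fasting, did not exceed 0.000761.

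**Figure D5:**
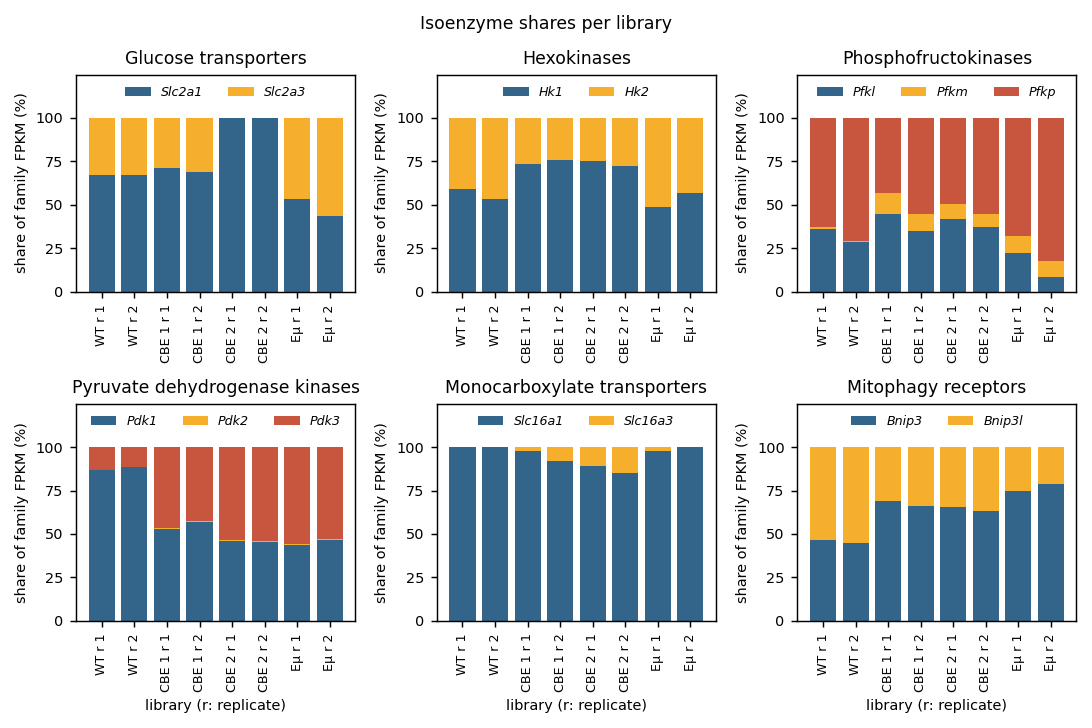
Share of each isoenzyme in the FPKM of the listed members of its family, in percent (stacked bars), for 6 families in the 8 libraries. Pdk3 widens from 13.3 and 11.2% in WT to over 40% in every mutant library, Bnip3l narrows in every mutant library, and Slc2a3 is under 1% in CBE line 2.

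Lactate leaves cells through monocarboxylate transporters. Slc16a1, the gene of MCT1, had 58.2 to 96.6 FPKM and no call in any comparison. Slc16a3, the gene of the exporter MCT4 (mm9 chromosome 11, 120809797 to 120820314), had 0.182 and 0.183 FPKM in WT, 2.21 and 5.0 for CBE line 1, 10.3 and 12.1 for CBE line 2, and 1.93 and 0.121 for the Eµ-deleted line. The CBE libraries were above all others, and the 2 Eµ-deleted libraries lay on either side of WT. Slc16a3 was tested only because it was high in the CBE lines and Eµ-deleted replicate 1, so its calls are not free of that choice. The log2 difference from WT was 3.36 (SE 0.46, adjusted p = 0.00309) in CBE line 2 and 1.89 (SE 0.46, adjusted p = 0.0326) in CBE line 1. The latter was lost without WT replicate 1 (0.139) or 2 (0.155), CBE line 1 replicate 2 (0.127), or CBE line 2 replicate 1 (0.0671) or 2 (0.067), and with no filter on low values (0.14). Set against the mean of the CBE lines, the Eµ-deleted line was lower (log2 difference -2.01, SE 0.40, adjusted p = 0.0218), lost without any library but CBE line 1 replicate 1 and Eµ-deleted replicate 1, at adjusted p from 0.0506 to 0.079, with no filter on low values (0.11) and with only the libraries compared (0.052). Slc16a3 still held only 10.6 and 15.0% of the 2 transporter genes' FPKM in CBE line 2, beside 0.223 and 0.244% in WT.

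Of the 4 oxygen-sensing members, Egln3 was the 1 that was called, and Hif1a, Vhl and Egln1 had no call in the fit of all 8 libraries without the replicate block. Hif1a, the oxygen-regulated subunit of HIF-1, ranged from 20.2 to 27.8 FPKM and Vhl from 10.7 to 14.8, with no call (Hif1a in the Eµ-deleted line against WT 0.32, SE 0.10, adjusted p = 0.0662, or 0.0454 with the block). Egln1, the main prolyl hydroxylase PHD2, had 21.0 and 23.3 FPKM in WT, 23.0 and 27.7 for CBE line 1, 30.0 and 32.6 for CBE line 2, and 25.6 and 32.9 for the Eµ-deleted line. Its differences from WT were 0.48 in CBE line 2 and 0.38 in Eµ-deleted cells (SE 0.15 each, adjusted p = 0.0736 and 0.125). Both were called with the replicate block (0.0092 and 0.0202) and in some fits that left out a library.

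Egln3, which encodes the hypoxia-induced hydroxylase PHD3 (mm9 chromosome 12, 55279967 to 55304861), was detected in CBE line 1 and little elsewhere. It was listed at 0 in both WT and both Eµ-deleted libraries, had 1.90 and 2.05 FPKM in CBE line 1, and 0.0216 and 0.00661 for CBE line 2. The intervals implied 351 and 264 reads in CBE line 1 and 3 and 1 for CBE line 2. Egln3 was tested only because it was high in CBE line 1. On the log2(FPKM + 1) scale CBE line 1 was above WT by 1.57 (SE 0.08, adjusted p = 4.01e-05), CBE line 2 below CBE line 1 (log2 difference -1.55, SE 0.08, adjusted p = 8.31e-05), and the Eµ-deleted line below the mean of the CBE lines (log2 difference -0.80, SE 0.07, adjusted p = 0.000582). These sizes depend on the added 1 FPKM. Egln3 held 7.63 and 6.90% of Egln1 plus Egln3 in CBE line 1.

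Among the hypoxia targets, Bnip3 was the member that was higher in every mutant line. Bnip3 (mm9 chromosome 7, 146082518 to 146101189), a receptor that marks mitochondria for autophagy, had 23.1 and 24 FPKM in WT, 61.1 and 53.6 for CBE line 1, 77.6 and 73.0 for CBE line 2, and 71.6 and 59.7 for the Eµ-deleted line. All 6 mutant libraries were above WT. Mean FPKM was 2.44-fold, 3.19-fold and 2.79-fold that of WT, with log2 differences of 1.25, 1.63 and 1.43 (SE 0.12 each; limma adjusted p = 0.000633, 0.000159 and 0.000349). CBE line 2 was above CBE line 1 by 0.39 (SE 0.12, adjusted p = 0.102, or 0.0402 with the block).

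Its relative Bnip3l, the receptor NIX, had 26.5 and 29.7 FPKM in WT, 27.3 and 27.2 for CBE line 1, 40.8 and 42.3 for CBE line 2, and 24.1 and 16.1 for the Eµ-deleted line. Relative to the mean of the CBE lines, the Eµ-deleted line was lower (log2 difference -0.74, SE 0.15, adjusted p = 0.0245). That call was lost without either WT library or any CBE library, at adjusted p from 0.0547 to 0.0883, with no filter on low values (0.0941) and with only the libraries compared (0.0546). Bnip3l held 53.4 and 55.3% of the pair in WT, 30.8 and 33.7% for CBE line 1, 34.5 and 36.7% for CBE line 2, and 25.2 and 21.3% for the Eµ-deleted line. WT was thus the line in which Bnip3l was the larger of the 2.

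P4ha1, a collagen prolyl hydroxylase subunit, had 13.2 and 14.1 FPKM in WT, 17.9 and 20.1 for CBE line 1, 19.7 and 19.9 for CBE line 2, and 17.6 and 16 for the Eµ-deleted line. All mutant libraries were above WT. It was called in CBE line 1 (0.45, SE 0.10, adjusted p = 0.0239) and CBE line 2 (0.50, SE 0.10, adjusted p = 0.0147). The first call was lost without WT replicate 1 (0.153) or 2 (0.112), CBE line 1 replicate 2 (0.0819), or CBE line 2 replicate 1 (0.0653) or 2 (0.0652), and with only the libraries compared (0.0637). The second was lost without WT replicate 1 (0.119) or 2 (0.0797), or CBE line 2 replicate 1 (0.102) or 2 (0.113).

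The other hypoxia targets had no call. Ankrd37, a small HIF-1 target, had 2.22 and 3.95 FPKM in WT, 8.91 and 15.3 for CBE line 1, 6.01 and 18.1 for CBE line 2, and 3.85 and 0.982 for the Eµ-deleted line. The CBE libraries were the highest 4, but with a wide spread (Eµ-deleted line against the mean of the CBE lines -1.97, SE 0.52, adjusted p = 0.0562, or 0.0398 with the block). Kdm3a, a histone demethylase, ranged from 12.8 to 20.6 FPKM (CBE line 2 against WT 0.44, SE 0.13, adjusted p = 0.0628, or 0.0188 with the block), and Ero1l, an oxidase of the endoplasmic reticulum, from 14.9 to 29.9.

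Ddit4, a stress-induced inhibitor of mTORC1, had 90.0 and 134 FPKM in WT, 30.9 and 107 for CBE line 1, 49.3 and 86.2 for CBE line 2, and 70.3 and 112 for the Eµ-deleted line. Replicate 2 was the higher library in all 4 lines. Both libraries of CBE line 2 lay below those of WT, and the other lines overlapped with WT, with no call in any comparison. In the fit with the block, the replicate difference of Ddit4 was 0.95 (limma adjusted p = 0.0765), and 0 members of 35 and 0 of all genes were called for replicate number.

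The exact permutation test over the 105 ways to pair the libraries was applied to 17 isoenzyme shares (an F statistic, with no direction; smallest possible p = 0.00952). After adjustment over the shares, 0 of 17 passed, with the smallest adjusted p at 0.054. Unadjusted, 10 were below the 5% level, and Slc2a3, Pfkm and Bnip3l were at the smallest p the design allows. With 2 libraries a line no pair of lines can be tested this way, so the shares above are given as values with their overlap.

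Of 92 other genes of these pathways, chosen with earlier results known, 63 were tested. CBE line 1 had 4 higher and 11 lower than WT (6.35% and 17.5%, beside 10.9% and 8.54% of all genes). CBE line 2 had 6 and 5 (9.52% and 7.94%, beside 10.5% and 8.19%), and the Eµ-deleted line 8 and 7 (12.7% and 11.1%, beside 11.3% and 10.4%). CBE line 2 had 9 higher and 2 lower than CBE line 1 (14.3% and 3.17%, beside 5.17% and 5.03%). The Eµ-deleted line had 7 higher and 5 lower than the mean of the CBE lines (11.1% and 7.94%, beside 5.16% and 7.25%). The most uniform was Mpc2, a subunit of the mitochondrial pyruvate carrier, with 144 and 140 FPKM in WT, 40.7 and 43.8 for CBE line 1, 51.7 and 51.6 for CBE line 2, and 47.3 and 45.2 for the Eµ-deleted line. All mutant libraries were below WT, with differences of -1.72, -1.44 and -1.60 in CBE line 1, CBE line 2 and Eµ-deleted cells (SE 0.08 each; adjusted p = 3.65e-05, 6.36e-05 and 4.63e-05). Pyruvate carboxylase, Pcx, which makes oxaloacetate, had a mean of 8.63 FPKM in WT, 2.68 for CBE line 1, 5.62 for CBE line 2 and 2.38 for Eµ-deleted cells. It was lower in all 3 mutant lines, by log2 differences of -1.39, -0.54 and -1.51 (SE 0.14 each; adjusted p = 0.000728, 0.0375 and 0.000528), and the call in CBE line 2 was lost without any library of WT or of that line, at up to 0.23.

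Of the 26 tested hypoxia targets among these other genes, 12 differed in the F-test over the 4 lines (46.2%, beside 27.6% of all genes). Pgf, a placental growth factor of the VEGF family, had 2.45 and 0.533 FPKM in WT, 19.2 and 15.0 for CBE line 1, 3.95 and 2.90 for CBE line 2, and 20.2 and 27.5 for the Eµ-deleted line. It was higher than WT by 2.97 (SE 0.38, adjusted p = 0.00232) in CBE line 1. Eµ-deleted cells were higher by 3.42 (SE 0.38, adjusted p = 0.00125). Plod1, a lysyl hydroxylase, had a mean of 3.13 FPKM in WT and was lower in CBE line 1 (0.222, difference -1.76), CBE line 2 (1.27, difference -0.86) and Eµ-deleted cells (0.372, difference -1.59), at adjusted p = 5.88e-05, 0.00122 and 8.8e-05. Ak4, a mitochondrial adenylate kinase, had 3.83 and 4.84 FPKM in CBE line 2 and at most 0.376 in any other library (CBE line 2 against WT 2.40, SE 0.12, adjusted p = 2.92e-05). Ak4 was thus tested only because it was high in CBE line 2. The same holds for Stc2 and Vldlr in CBE line 2 and the Eµ-deleted line, and for Hmox1 in the CBE lines. Plod1 reached 1 FPKM only in WT and CBE line 2. Stc2, a stanniocalcin, was listed at 0 in WT and was higher in CBE line 2 (2.48 and 4.33 FPKM, adjusted p = 0.000763) and in Eµ-deleted cells (1.17 and 1.83 FPKM, adjusted p = 0.00688, lost without WT replicate 2 at 0.0515). Vldlr, a lipoprotein receptor, was listed at 0 in WT and in CBE line 1 replicate 1, and reached 1.41 to 2.61 FPKM in the CBE line 2 and Eµ-deleted libraries. Hmox1, the heme oxygenase, averaged 0.275 FPKM in WT, 2.15 in CBE line 1 (adjusted p = 0.0631, or 0.0356 with the block) and 4.54 in CBE line 2 (2.11, SE 0.35, adjusted p = 0.00728, lost without WT replicate 2 or CBE line 2 replicate 2 at up to 0.0607).

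Fbp1, which opposes phosphofructokinase in gluconeogenesis, was seen in the Eµ-deleted line, with 10.6 and 5.72 FPKM where all other libraries had at most 0.633, so it too was tested only because it was high in that line. It was above WT by 2.75 (SE 0.24, adjusted p = 0.000414) and above the mean of the CBE lines by 2.73 (SE 0.20, adjusted p = 0.000307). The HIF partner Arnt (10.8 to 13.9 FPKM), the hydroxylase Egln2 (19.8 to 25.3) and the growth factor Vegfa (33.5 to 115) had no call, and the second HIF subunit gene Epas1 did not exceed 0.0508 FPKM.

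Of the 8 tested other genes of oxygen sensing, 2 differed in the F-test (25%, beside 27.6% of all genes), and these and Hif1an are named after their values were seen. Cited2, a hypoxia-induced competitor of HIF-1 for its coactivators, had 78.3 and 87.2 FPKM in WT, 55.8 and 59.8 for CBE line 1, 139 and 170.0 for CBE line 2, and 44.5 and 56.6 for the Eµ-deleted line. It was highest in CBE line 2, above WT by 0.89 (SE 0.15, adjusted p = 0.00816, lost without WT replicate 1 or CBE line 2 replicate 2 at up to 0.0685) and above CBE line 1 by 1.40 (adjusted p = 0.00224). The Eµ-deleted line was below WT (log2 difference -0.71, SE 0.15, adjusted p = 0.02, lost without either WT library). CBE line 1 was also below WT in Cited2 (log2 difference -0.51, SE 0.15, adjusted p = 0.0631, or 0.00765 with the block). Cul2, a scaffold of the VHL ligase, had a mean of 28.3 FPKM in CBE line 1 and 19.6 in WT (0.51, SE 0.08, adjusted p = 0.00633, lost without WT replicate 2 at 0.0743). Hif1an, the asparaginyl hydroxylase that restrains HIF-1, was lower in CBE line 1 (6.10 FPKM, beside 9.74 in WT, difference -0.60, SE 0.14, adjusted p = 0.0263). That call was lost without either library of WT or CBE line 2 or without CBE line 1 replicate 1. CBE line 2 (7.32 FPKM) and the Eµ-deleted line (6.93 FPKM) also lay below WT without overlap. Their differences of -0.37 and -0.44 (SE 0.14 each, adjusted p = 0.124 and 0.066) were called with the replicate block (0.0429 and 0.021).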

How the data were processed

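RNA was measured in 8 libraries of 4 mouse pro-B lines, 2 each; the depth of each library is not stated beyond a target of 20 to 30 M single 75 bp reads per the labels' protocols. The authors deposited FPKM with an interval per gene, per the file headers; TopHat, Cufflinks and mm9 are named in the submitters' processing notes, with settings not given in the sources. Reads per gene were implied from each interval, read as 2 SD either side. The intervals are of single libraries and hold no spread between libraries. For some abundant genes the implied reads are not read numbers. Gapdh had 2122 to 2256 at 359 to 652 FPKM, where Pgk1 had 15520 to 38236 at 174 to 377 FPKM.

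Rows of 1 symbol were summed (277 symbols), and 21 symbols whose quantification failed or was capped in some library were not tested. Genes reaching FPKM of 1 in at least 2 libraries entered a limma 3.58.1 fit (R 4.3.3) of log2(FPKM + 1), with a mean-variance trend and a spread shared by the 4 lines (4 residual and 2.65 prior degrees of freedom). Adjusted p-values are Benjamini-Hochberg values over 10479 genes, with 0.05 as the threshold. The fit was tested on simulated data with errors drawn independently for each library. That test cannot show how deviations shared between libraries affect the calls. Log2 differences are on the FPKM + 1 scale, which understates changes of low genes, and fold values are ratios of mean FPKM. The members and all lists were chosen with earlier results of these data known. Values per library are given for members called in any fit and for isoenzyme families; of 92 related genes, up to 4 called ones with the largest difference per comparison were eligible for naming, and Hk3, Pdk4, Arnt, Epas1, Egln2 and Vegfa always. Libraries of different lines with the same replicate number deviated together (r = 0.28 to 0.50 in all 6 pairs of lines, across genes), so the numbers were taken to pair libraries, and values with the number as a block are given where they change a call. Alternatives were other pseudocounts, filters, scalings, limma settings and sample sets, and each library left out; a line left with 1 library was then assumed to vary like the others.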

Additional observations from a re-analysis of the deposited data

Results flagged for a closer look

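The 2 CBE lines carry the same genotype label, and in 4 members they differed by limma's test of the difference itself, each at adjusted p under 0.05. CBE line 2 minus CBE line 1 was -3.40 for the glucose transporter gene Slc2a3, -2.79 for the aldolase gene Aldoc, -1.55 for the prolyl hydroxylase gene Egln3 and -0.86 for the enolase gene Eno3, on the log2(FPKM + 1) scale. Aldoc and Egln3 were tested only because they were high in CBE line 1, so their calls are not free of that choice. The Eno3 difference was lost without either CBE line 2 library (adjusted p = 0.115 and 0.128), with no filter on low values (0.0704) and with only the libraries compared (0.0667).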

How the results depend on the processing

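Of 37 called member differences, 23 kept their direction and their side of the threshold in all settings run for them and in all fits that left out 1 library. Over 726 alternative values, 79 lost the call and 0 changed direction. With only genes of mean FPKM 5 or more, members called numbered 5 in CBE line 1 against WT, 1 between the CBE lines, 5 in the Eµ-deleted line against the CBE mean and 9 in any line; fewer members were then tested. With no filter on low values, 9 of the 37 calls were lost, and with only the libraries compared 7. In the latter fit, CBE line 2 against WT had 16. With the replicate block, the Eµ-deleted line against WT had 11 (7 without it), CBE line 1 against WT had 11, CBE line 2 against WT had 11, CBE line 2 against CBE line 1 had 5, the Eµ-deleted line against the CBE mean had 13 and any line had 18; no call was lost. Leaving out 1 library gave 5 (without WT replicate 2) to 12 members in CBE line 1 against WT, 7 to 15 in CBE line 2 against WT, 4 to 18 in the Eµ-deleted line against WT, 3 to 8 between the CBE lines, 5 to 19 in the Eµ-deleted line against the CBE mean and 8 to 24 in any line. The highest counts in the 3 that involve the Eµ-deleted line or any line came without Eµ-deleted replicate 1. Isoenzyme shares passing the exact permutation test numbered 0, but 4 on a logit scale with 0.1 FPKM added, and 0 to 4 with 1 library left out (4 without Eµ-deleted replicate 2). With shares permuted within the replicate block, 24 arrangements allow no p below 0.0417, and 0 passed. The cause of these shifts was not tested. Genes under about 1 FPKM, such as Pdk2 and Egln3 outside CBE line 1, are limited by depth, and 2 libraries a line limit all tests.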
